A study of Mus musculus with 56 samples.

Results

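The 9 transcription factor genes that are known to set the identity of microglia, the resident macrophages of the brain, followed here through every preparation of the study, are Sall1, Mef2c, Mef2a, Irf8, Spi1, Bhlhe41, Runx1, Cebpa and Maf. They were chosen by symbol, and all 9 were found among 23418 symbols of the bulk count table, 23356 symbols of the FPKM tables and 27998 genes of the single-cell matrix, across 56 samples. Spi1 is written under its older symbol Sfpi1 in both bulk sources. The study asked how the cytokine IL-33 and its receptor ST2 shape the growth, phagocytosis and metabolism of cortical microglia in young mice. Cultured cells, selected with CD11b beads from wild-type B6 pups of postnatal day 5 to 8 and grown with M-CSF and serum, were used after 7 to 9 days in vitro, 7 libraries with IL-33 at 200 ng/ml for 3 h and 7 in medium. The protocol of these cultures also names the inhibitor GSK-J4, and which cultures received it is not given in the sources used here. Sorted cortical microglia from Mapttm1(EGFP)Klt carriers on a B6/129 background, in which the Tau (Mapt) locus drives EGFP in neurons, gave 8 Tau-GFP plus and 8 Tau-GFP negative libraries. Their labels give day 10 and the design text day 9. Sorting of cortical B6/C57 microglia of day 9 by TMRM, a dye taken up by energised mitochondria, gave 10 TMRM high and 8 TMRM low libraries. Droplet single-cell libraries of sorted CD45int CD11bint cells of B6 cortex came 2 each from wild-type mice at day 28 (P28) and day 9 (P9), and from day 9 mice labelled ST2 KO and ST2 Het. The labels do not say how many animals stand behind a library, so p-values measure the spread between libraries, which may be technical.

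Macrophages of all tissues depend on the ETS factor PU.1, the product of Spi1, which opens enhancers together with Cebpa, Runx1 and Irf8. In the brain, signals such as TGF-beta add a tissue programme, and the zinc finger protein Sall1, which other macrophages hardly express, holds microglia in that state. Mef2a and Mef2c are MADS-box factors bound at many microglial enhancers. Bhlhe41 is a basic helix-loop-helix repressor that binds E-boxes, and Maf is a basic leucine zipper factor of resident macrophages. On GRCm38.p6 the protein-coding genes lie at chr8:89027242-89044162 (Sall1), chr13:83504017-83667079 (Mef2c), chr7:67231163-67376456 (Mef2a), chr8:120736358-120756694 (Irf8), chr2:91082374-91115759 (Spi1), chr6:145858243-145865420 (Bhlhe41), chr16:92601466-92826074 (Runx1), chr7:35119293-35121928 (Cebpa) and chr8:115703253-115706894 (Maf).

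RefSeq promoters, 250 bases before to 50 after a start site on GRCm38.p6, were matched for 7 of the 9 genes with 13 entries, of which 5 begin at the start site of the gene's locus in the FPKM tables. Of these, 4 are shown because their genes were lower in Tau-GFP plus cells. Capitals mark 3 motifs of factors in the group, searched on both strands: GAGGAA, the core letters of PU.1 sites, CACGTG, the E-box of Bhlhe41, and the MEF2 element, CTA and TAG with 4 bases between. The matches do not overlap one another.
Sall1, minus strand, chr8:89044113-89044412: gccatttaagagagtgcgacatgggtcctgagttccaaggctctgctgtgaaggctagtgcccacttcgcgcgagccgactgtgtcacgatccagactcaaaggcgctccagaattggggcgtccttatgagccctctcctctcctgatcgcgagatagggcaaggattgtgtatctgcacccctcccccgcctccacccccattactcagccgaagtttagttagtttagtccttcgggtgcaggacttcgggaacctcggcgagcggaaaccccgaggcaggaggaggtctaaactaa
Mef2c, plus strand, chr13:83503784-83504083: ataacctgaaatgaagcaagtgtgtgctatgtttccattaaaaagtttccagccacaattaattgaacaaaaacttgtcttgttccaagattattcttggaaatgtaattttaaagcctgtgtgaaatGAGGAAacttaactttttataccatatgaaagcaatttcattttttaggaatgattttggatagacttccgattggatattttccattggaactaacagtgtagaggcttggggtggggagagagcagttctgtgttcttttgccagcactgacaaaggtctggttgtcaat
Mef2a, minus strand, chr7:67372809-67373108: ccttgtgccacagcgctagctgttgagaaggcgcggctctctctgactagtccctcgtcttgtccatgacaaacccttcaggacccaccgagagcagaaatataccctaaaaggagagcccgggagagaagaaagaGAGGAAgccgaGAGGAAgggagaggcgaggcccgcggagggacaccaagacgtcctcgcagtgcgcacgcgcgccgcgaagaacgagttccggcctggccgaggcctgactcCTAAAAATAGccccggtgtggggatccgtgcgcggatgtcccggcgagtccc
Bhlhe41, minus strand, chr6:145865371-145865670: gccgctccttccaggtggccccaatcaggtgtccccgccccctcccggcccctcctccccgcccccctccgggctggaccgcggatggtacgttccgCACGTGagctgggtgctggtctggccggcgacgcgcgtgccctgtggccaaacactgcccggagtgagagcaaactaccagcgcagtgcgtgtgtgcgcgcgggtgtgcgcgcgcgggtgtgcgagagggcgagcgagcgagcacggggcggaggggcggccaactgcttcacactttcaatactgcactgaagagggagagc
The Mef2a window held 2 GAGGAA matches and 1 MEF2 element, the Mef2c window 1 GAGGAA, the Bhlhe41 window 1 CACGTG, and the Sall1 window 0 of the 3. Of 32851 promoters in the RefSeq table, 28.3% held GAGGAA, 7.15% CACGTG and 3.69% the MEF2 element, so a GAGGAA match is common in windows of this length. The Mef2c window was 35.7% G or C and the Bhlhe41 window 70.7%. These matches describe letters and not binding.

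The bulk libraries of the count table held 7709047 to 11826389 expected counts, and no read depth is known for the FPKM. Summed UMIs of microglia-like cells ran from 4080229 to 10529882 per single-cell library. Microglia markers, 12 genes with 0 of them missing from every library, summed to 30752 to 72914 CPM in the Tau-GFP libraries and to 8841 to 10460 CPM in the cultures. Tau-GFP plus 3 and 1 had the lowest correlations with their group (0.918 and 0.940), as had TMRM low 3 and low 2 among the TMRM libraries (0.867 and 0.882). Any 2 single-cell libraries shared at most 14 barcodes. Il1rl1, the gene of ST2, had 7.35 and 6.17 CPM in the libraries labelled ST2 KO, against 5.44 and 6.72 CPM in those labelled ST2 Het. UMIs from the 3' end of a transcript do not show whether the targeted part of the gene was present, so these values check nothing about the labels.

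In IL-33 cultures 3 of the 9 factors were lower than in medium and 0 were higher, by edgeR's quasi-likelihood test with Benjamini-Hochberg adjustment over all genes (adjusted p under 0.05). Of 10814 genes tested, 3.5% were lower, 4.21% higher and 7.71% called in either direction. Cebpa, a driver of myeloid differentiation, ranged from 17.8 CPM (counts set to equal library sizes by TMM) over a median of 21.6 to 24.4 CPM in IL-33 cultures, against 22.9, 31.1 and 32.8 CPM in medium. All 7 IL-33 libraries lay below the medium median, and medium 2 (22.9 CPM) was the only medium library within their range. The log2 fold change was -0.50 ± 0.09 (SE, n = 7 each, adjusted p = 0.000534 by edgeR). Mef2c ranged from 59.8 over 66.8 to 73.8 CPM in IL-33 cultures, against 69.1, 86.1 and 92.9 CPM in medium (-0.36 ± 0.06, edgeR adjusted p = 0.00068). Irf8, the interferon regulatory factor that pairs with PU.1, ranged from 232 over 248 to 293 CPM with IL-33, against 280, 297 and 310 CPM in medium (-0.24 ± 0.05, edgeR adjusted p = 0.00122). For both genes 0 of 7 IL-33 libraries lay above the medium median, and 1 library made the groups overlap: medium 2 for Mef2c and IL-33 culture 1 for Irf8. The groups overlapped for all 9 genes, and 3.49% of all genes did not overlap.

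Sall1 was scarce in both kinds of culture, at 9.69, 12.01 and 16.2 CPM with IL-33 (lowest, median, highest), against 6.79, 11.7 and 16.3 CPM in medium, from 69 to 188 counts per library. Its log2 fold change of 0.15 has an interval of -0.18 to 0.48 (2 SE on either side, edgeR adjusted p = 0.712). Spi1 had a log2 fold change of -0.0043 with an interval of -0.41 to 0.40. Its libraries spread widely, from 88.0 to 287 CPM with IL-33, against 137 to 292 CPM in medium. Runx1 was even in both groups (31.5 to 41.7 CPM with IL-33, against 34.3 to 39.9 CPM in medium), and its interval was -0.076 to 0.20. Mef2a (-0.26), Bhlhe41 (-0.071) and Maf (-0.12) did not pass the test. The median of the 9 log2 fold changes was -0.12, beside -0.0078 over all genes.

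Relatives and partners of the 9 factors, such as Irf1, Irf2 and Sall3, gave 0 calls of 17 tested with IL-33. Of 26 other macrophage transcription factors tested, 2 rose and 2 fell. Nr1h3, the sterol receptor LXR alpha, stood at 21.5 CPM on average after IL-33, against 11.9 CPM in medium (0.86 ± 0.16, edgeR adjusted p = 0.0011), and Ets2, an ETS factor, rose by 0.56 on the log2 scale. Lyl1 and Fli1, factors of blood cell development, fell by 0.25 and 0.18 in log2 units. Among 16 homeostatic microglia genes tested, 6 fell and 1 rose. P2ry13 (-1.095), Gpr34 (-0.95) and P2ry12 (-0.88), receptors for nucleotides or lysophospholipids, had the lowest values of that list.

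Tau-GFP plus microglia had less Sall1, Mef2a, Bhlhe41, Irf8 and Mef2c RNA than Tau-GFP negative microglia, and 0 of the 9 factors were higher. Of 12137 genes, 16.9% were lower, 20.7% higher and 37.7% called in either direction. Sall1 ranged from 241 over 332 to 365 CPM in plus libraries, against 492, 550 and 613 CPM in negative libraries. The groups did not overlap for Sall1, which 11.3% of all genes also showed, and the log2 fold change was -0.76 ± 0.08 (SE, n = 8 each, edgeR adjusted p = 6.72e-07). Mef2a ranged from 41.0 over 50.9 to 63.2 CPM in plus libraries, against 59.8, 78.5 and 104 CPM in negative libraries (-0.66 ± 0.11, edgeR adjusted p = 0.000198). Plus 5 (63.2 CPM) was the only plus library above the lowest negative one. Mef2c, its relative, differed less, with 308, 343 and 371 CPM in plus libraries, against 359, 406 and 438 CPM in negative libraries (-0.24 ± 0.06, edgeR adjusted p = 0.00256).

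Irf8 ranged from 150 over 277 to 319 CPM in plus libraries, against 309, 330 and 399 CPM in negative libraries (-0.41 ± 0.12, edgeR adjusted p = 0.0152). Plus 1 (150 CPM) and plus 3 (175 CPM) were far below the other 6 plus libraries, which began at 273 CPM. Without plus 1 and 3 the log2 fold change of Irf8 was -0.24 (edgeR adjusted p = 0.00481). Bhlhe41 ranged from 102 over 159 to 199 CPM in plus libraries, against 115, 221 and 283 CPM in negative libraries (-0.48 ± 0.17, edgeR adjusted p = 0.0372). This call was lost without plus 3 (edgeR adjusted p = 0.0665), without plus 5 (0.0693) and without plus 1 and 3 (0.0619). With replicate number as a block in the fit the call held (-0.46, edgeR adjusted p = 0.00327). Whether the numbers pair libraries is unsettled.

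The other 4 factors did not pass the test. Maf averaged 200.2 ± 24.7 CPM in plus and 199.7 ± 43.1 CPM in negative libraries (SD, n = 8 each), and its interval was -0.25 to 0.26. Runx1 averaged 44.0 ± 3.74 CPM in plus and 43.1 ± 3.49 CPM in negative libraries, with an interval of -0.11 to 0.17. Cebpa was low in both, at 12.9 ± 2.76 CPM in plus and 13.3 ± 1.69 CPM in negative libraries (-0.044, interval -0.32 to 0.24). Spi1 had an interval of -0.93 to 0.36 and ranged from 36.3 to 185 CPM in plus and from 69.0 to 203 CPM in negative libraries. Its edgeR adjusted p was 0.523, and 0.0684 with replicate number as a block in the fit (-0.41). The median of the 9 was -0.29, beside 0.0072 over all genes.

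Border-associated macrophage markers (7 genes) summed to 2724 to 7627 CPM in Tau-GFP plus libraries, against 469 to 729 CPM in negative ones. Microglia markers summed to 30752 to 47526 CPM in plus, against 60120 to 72914 CPM in negative libraries. Endothelial markers overlapped, at 54.4 to 2863 CPM in plus (highest in plus 3), against 69.8 to 409 CPM in negative libraries. Mural cell markers (6 genes) did not overlap, at 45.0 to 317 CPM in plus, against 5.79 to 36.7 CPM in negative libraries. Cell cycle markers had medians of 2414 CPM in plus and 1589 CPM in negative libraries. Neuronal markers (6 genes) summed to 75.9 to 170 CPM in plus, against 2.76 to 14.4 CPM in negative libraries. Neutrophil markers were at or near 0 in both groups, with at most 2.24 CPM. In the single-cell data, border-associated macrophage-like cells held less Sall1 than microglia-like cells (44.1 and 150 CPM, medians over libraries) and more Maf (845 and 459 CPM). The part of these cells in the Tau-GFP differences was not tested. In bulk samples, fewer cells of a type and less RNA per cell cannot be told apart.

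Among relatives and partners, 9 of 17 tested were lower in Tau-GFP plus cells and 1 was higher. The lower ones included Sall3 (43.8 CPM in plus, 67.8 CPM in negative, -0.63) and Irf2 (-0.44). Bhlhe40, the paralog of Bhlhe41, averaged 3.84 CPM in plus and 0.85 CPM in negative libraries (2.16 ± 0.61, edgeR adjusted p = 0.0094), a call lost without plus 1 and 3 (0.0684). Of 26 other macrophage factors, 6 were higher, with Klf4 at 20.8 CPM in plus and 4.92 CPM in negative libraries (2.08), and 8 were lower, with Hhex at 70.3 CPM in plus and 101 CPM in negative libraries (-0.52). The homeostatic genes tested were lower in 18 of 18 cases, among them Slc2a5 (-1.04), Tmem119 (-0.94) and P2ry12 (-0.91).

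**Figure D1:**
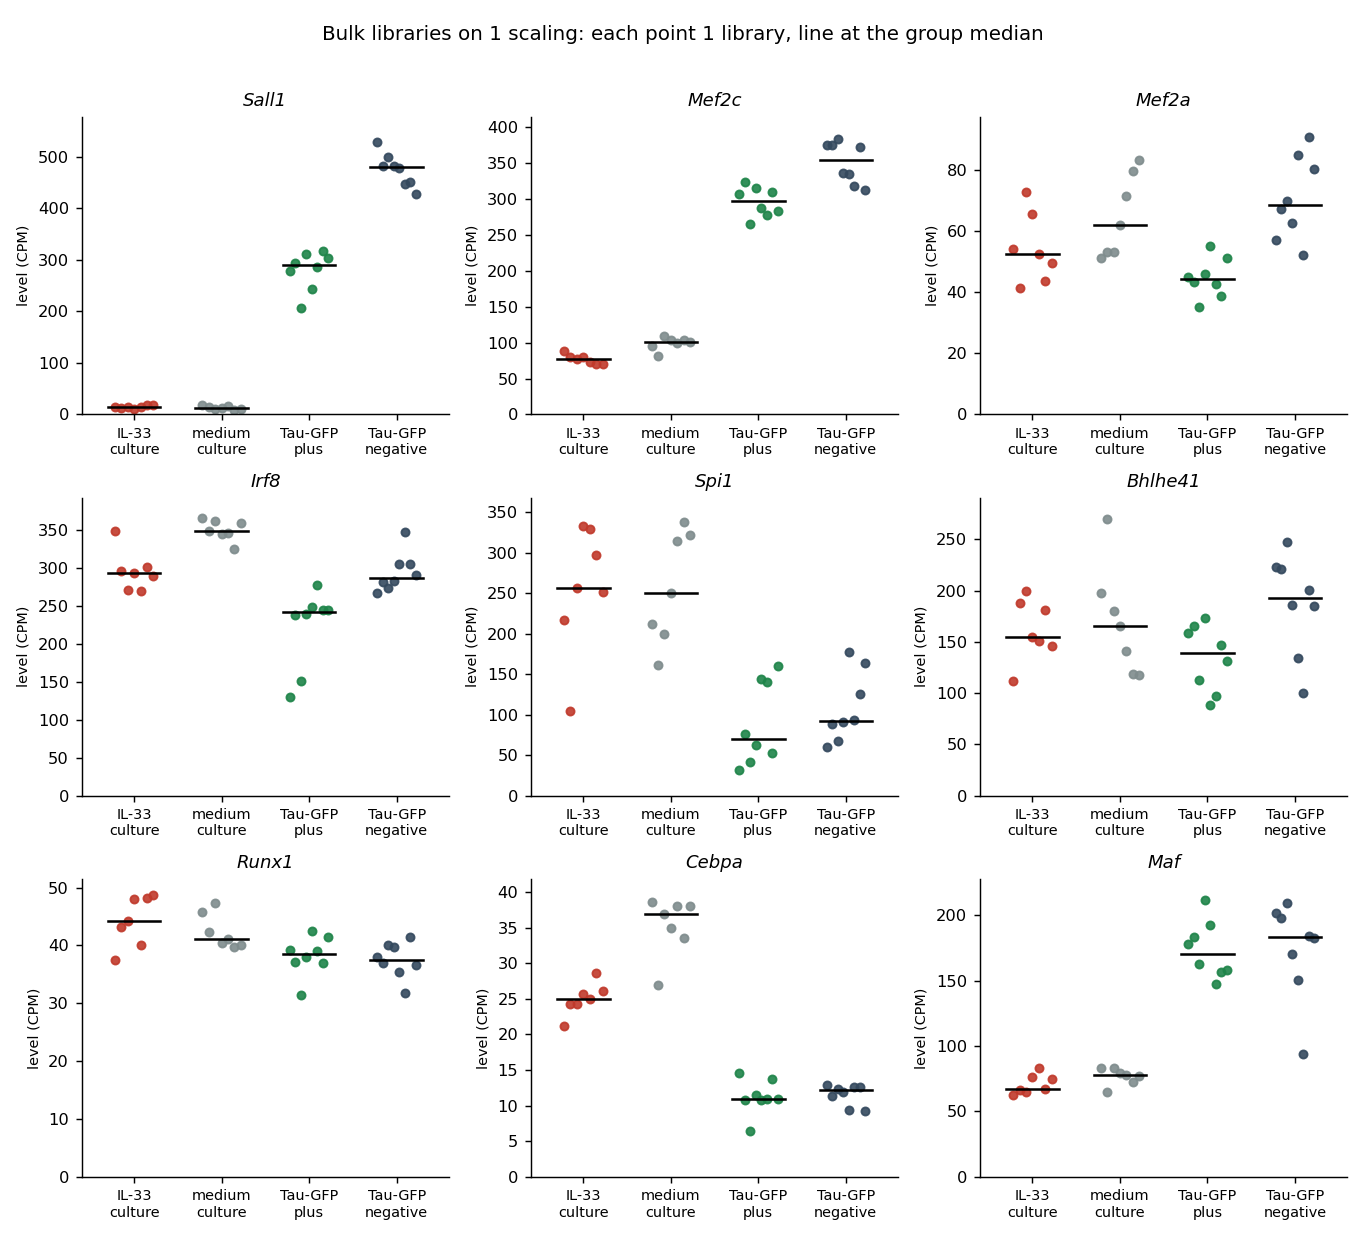
Level of each gene in CPM on 1 common TMM scaling of the 30 bulk libraries of the count table, with 1 panel per gene. Points are libraries (7, 7, 8 and 8) and lines group medians. Sall1 stood at medians of 14.3 and 13.6 CPM in IL-33 and medium cultures, against 290 CPM in Tau-GFP plus and 480 CPM in Tau-GFP negative cells, while Spi1 and Bhlhe41 spread widely within groups.

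In TMRM high microglia, Sall1 was lower than in TMRM low microglia, and it was the only one of the 9 factors past the threshold (limma-trend on log2-transformed FPKM with 1 added). Of 10714 genes, 9.84% were lower, 20.4% higher and 30.3% called in either direction. Sall1 ranged from 21.8 over 23.4 to 26.4 FPKM in high libraries, against 23.8, 30.4 and 38.1 FPKM in low libraries. The high libraries were tightly grouped, 0 of 10 lay above the low median, and only low 2 (23.8 FPKM) lay within their range. The groups overlapped for all 9 factors, and 6.85% of all genes did not overlap. The log2 fold change on the log2(FPKM + 1) scale was -0.36 ± 0.08 (SE, n = 10 and 8, limma adjusted p = 0.00106). Runx1 was close to the threshold, with 5.49, 6.87 and 8.27 FPKM in high libraries, against 6.84, 8.27 and 9.43 FPKM in low libraries (-0.22 ± 0.08, limma adjusted p = 0.0508).

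Several factors were low together in the same few TMRM libraries. Spi1 was at 48.4 FPKM in high 1, 105 in high 2, 74.4 in low 2 and 49.2 in low 3, against 208 to 267 FPKM in the other 8 high libraries and 196 to 235 FPKM in the other 6 low ones. Mef2a was at 6.05 and 8.14 FPKM in high 1 and 2 and at 6.91 FPKM in low 3, against group medians of 18.3 FPKM in high and 20.7 FPKM in low libraries. Mef2c, Bhlhe41 and Maf were lowest in the same 3 libraries. Sall1 in high 1 and high 2 (23.4 FPKM in each) lay at its group's median.

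The call count depended on TMRM low 2 and low 3. It was 2 without low 2, 4 without low 3 and 4 without both, by limma. Without low 3 the called genes were Sall1, Runx1 (-0.25, adjusted p = 0.0240), Maf (-0.42, 0.0152) and Irf8 (0.15, 0.0458). Without low 2 and 3 they were Sall1 (-0.43, 6.64e-05), Runx1 (-0.29, 0.0103), Maf (-0.37, 0.0323) and Mef2a (-0.58, 0.0404). Choroid plexus markers summed to 30.4 to 117 FPKM in high libraries, against 116 to 34003 FPKM in low libraries, with the top value in low 2 and a median of 234 FPKM. Neutrophil markers summed to 0.184 to 785 FPKM in high libraries, against 651 to 2326 FPKM in low libraries, and cell cycle markers to 793 to 997 FPKM in high, against 477 to 672 FPKM in low libraries. Border-associated macrophage markers were higher on the whole in TMRM high, at 121 to 211 FPKM (median 151) in high libraries, against 51.3 to 134 FPKM (median 86.8) in low libraries. Monocyte markers summed to 8.98 to 29.05 FPKM in high libraries, against 31.2 to 81.1 FPKM in low libraries, and neuronal markers to 1.45 to 4.12 FPKM in high, against 8.41 to 50.6 FPKM in low libraries, so that neither list overlapped between the groups. The part of these cells in the TMRM differences was not tested.

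Irf8 (0.086, interval -0.057 to 0.23), Cebpa (0.098, -0.12 to 0.31), Mef2c (0.034, -0.29 to 0.35) and Spi1 (0.28, -0.43 to 0.98) did not pass the test, nor did Mef2a (-0.30), Maf (-0.28) and Bhlhe41 (-0.26). The median of the 9 was -0.22, beside 0.056 over all genes. FPKM are scaled to transcript length, so levels can be ordered across genes here. By the median of TMRM high libraries, Spi1 (239 FPKM) and Irf8 (107) stood above Mef2c (44.5), Sall1 (23.4), Mef2a (18.3), Bhlhe41 (12.5), Maf (11.001), Cebpa (7.43) and Runx1 (6.87). Only Irf8 and Mef2c, and Sall1 and Mef2a, did not overlap in range among neighbours of this order, and the other neighbours lay within their spread.

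Of the relatives and partners, 4 of 19 were higher and 3 lower in TMRM high cells. Bhlhe40 averaged 4.88 FPKM in high and 1.58 FPKM in low libraries (1.22 ± 0.16, limma adjusted p = 6.1e-06) and Irf1 100.03 FPKM in high and 64.9 FPKM in low libraries (0.62). Of 26 other macrophage factors, 5 were higher and 7 lower, led by Klf2 (17.6 FPKM in high, 41.7 in low, -1.22), with Klf6 at 129 FPKM in high and 212 FPKM in low libraries (-0.71), both Krüppel-like factors. Of 18 homeostatic genes, 10 were lower and 1 higher, with Tmem119 at 276 FPKM in high and 567 FPKM in low libraries (-1.03).

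**Figure D2:**
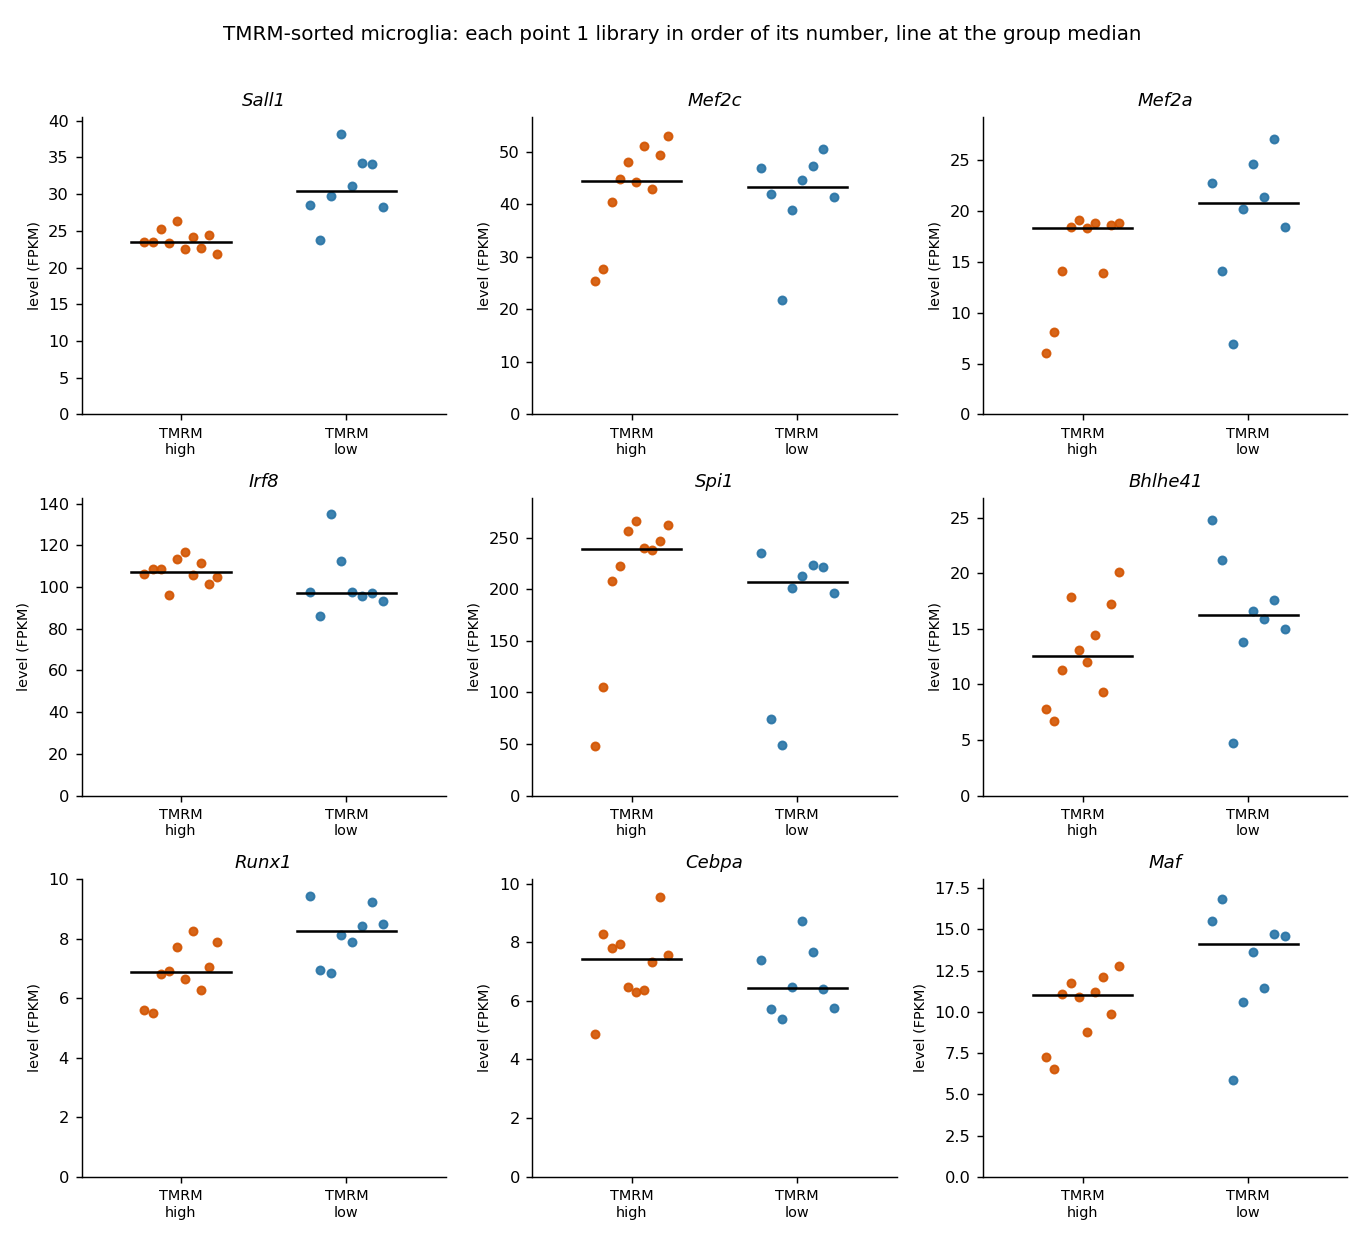
Level of each gene in FPKM in TMRM high (10) and TMRM low (8) libraries, with 1 panel per gene. Points are libraries and lines are medians. Sall1 lay between 21.8 and 26.4 FPKM in the high libraries, with all low libraries except low 2 above 26.4 FPKM, and Spi1 stood at 48.4 to 105 FPKM in 4 libraries and at 196 to 267 FPKM in the other 14.

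At P28, 7 of the 9 factors were higher than at P9 and Maf was lower, in UMIs summed over microglia-like cells of each library. Of 11599 genes, 27.5% were higher, 26.2% lower and 53.7% called in either direction by edgeR. Which direction held more genes depended on the setting, with 3187 higher and 3038 lower by edgeR, but 1952 higher and 2494 lower by DESeq2 and 2982 higher and 3188 lower under RLE scaling. Cebpa had 387 and 403 CPM at P28, against 130 and 124 CPM at P9 (log2 fold change 1.64 ± 0.06, n = 2 each, edgeR adjusted p = 1.43e-10), a 3.11-fold difference in means. Mef2a had 277 and 282 CPM at P28, against 150 and 147 CPM at P9 (0.91 ± 0.05, edgeR adjusted p = 1.16e-08). Irf8 had 643 and 653 CPM at P28, against 374 and 355 CPM at P9 (0.83 ± 0.05, edgeR adjusted p = 3.54e-08). For these 3 genes, the gap between ages was many times the gap between libraries of an age.

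Smaller differences were called for 5 more. Runx1 had 52.6 and 54.5 CPM at P28, against 38.8 and 39.7 CPM at P9 (0.45 ± 0.08, edgeR adjusted p = 0.000357). Sall1 had 191 and 198 CPM at P28, against 152 CPM in each P9 library (0.36 ± 0.06, edgeR adjusted p = 0.000174), and Mef2c had 753 and 776 CPM at P28, against 620 and 653 CPM at P9 (0.26 ± 0.05, edgeR adjusted p = 0.00053). Bhlhe41 had 158 and 166 CPM at P28, against 138 and 120 CPM at P9 (0.33 ± 0.10, edgeR adjusted p = 0.0115). Maf had 343 and 364 CPM at P28, against 386 and 437 CPM at P9 (-0.22 ± 0.06, edgeR adjusted p = 0.00946). The Bhlhe41 call was lost without P28 2 (adjusted p = 0.0637) or P9 2 (0.110), and the Maf call without P28 1 (0.159) or P9 2 (0.123).

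Spi1 had the smallest difference, with 630 and 643 CPM at P28, against 680 and 681 CPM at P9 (-0.10, interval -0.19 to -0.0023, edgeR unadjusted p = 0.0618, adjusted p = 0.101). It was called lower under RLE scaling (-0.13, adjusted p = 0.0476), in a fit of the 4 libraries alone (-0.14, 0.0143) and without clusters led by cell cycle genes (-0.16, 0.0213). The P28 and P9 libraries did not overlap for any of the 9, as for 78.3% of all genes. The median of the 9 was 0.36, beside 0.056 over all genes. Cells in clusters led by cell cycle genes made up 0% of microglia-like cells at P28, against 29.2% and 30.5% at P9, and without those clusters the 8 calls remained by edgeR, with Bhlhe41 at 0.22 (adjusted p = 0.0499). Within microglia-like cells, border-associated macrophage markers summed to 27.4 and 32.1 CPM at P28, against 288 and 301 CPM at P9, and neutrophil markers to 57.3 and 90.5 CPM at P28, against 2.24 and 5.93 CPM at P9. The part of these in the age differences was not tested.

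The P9 mice labelled ST2 Het are a further measure at that age, though with another date code in their labels, so that genotype and date cannot be told apart. Mef2c had 765 and 736 CPM in ST2 Het, close to P28 and above wild-type P9. Runx1 had 49.9 and 55.4 CPM in ST2 Het, a range that holds both P28 values. Mef2a stood between, with 209 and 204 CPM. Cebpa (129 and 137 CPM), Irf8 (348 and 374 CPM) and Sall1 (149 and 162 CPM) in ST2 Het lay near the wild-type P9 values and below P28. Maf had 497 and 489 CPM in ST2 Het, above both wild-type ages. Spi1 had 620 and 595 CPM in ST2 Het, below both wild-type ages, and Bhlhe41 had 150 and 126 CPM in ST2 Het, below P28 and with 1 of the 2 values inside the wild-type P9 range.

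Of the relatives and partners, 11 of 17 tested were higher at P28 and 2 lower. Cebpg, a partner of other C/EBP proteins, averaged 240.4 CPM at P28 and 91.9 CPM at P9 (1.39 ± 0.06, edgeR adjusted p = 4.5e-10). The interferon regulatory factors Irf9 (0.95) and Irf5 (0.93) were higher, and Maff was lower (2.01 CPM at P28 and 4.77 CPM at P9, -1.24). Of 27 other macrophage factors, 14 were higher and 7 lower, among them Tfec (2.87 CPM at P28 and 15.7 CPM at P9, -2.45). Klf2 averaged 90.6 CPM at P28 and 304 CPM at P9 (-1.74). Of 18 homeostatic genes, 16 were higher and 0 lower, with Selplg (1.86), Tgfbr1 (1.75), the TGF-beta receptor, and Tmem119 (1.29) the most.

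In mice labelled ST2 KO, 0 of the 9 factors passed the test against ST2 Het by edgeR, and 69 of 11599 genes (0.595%) were called, 0.302% higher and 0.293% lower. Maf had 578 and 563 CPM in ST2 KO, against 497 and 489 CPM in ST2 Het (0.21 ± 0.06, n = 2 each, edgeR adjusted p = 0.241). Cebpa had 121 and 115 CPM in ST2 KO, against 129 and 137 CPM in ST2 Het (-0.17 ± 0.06, edgeR adjusted p = 0.370). These were the 2 members with an unadjusted p under 0.05, as 1155 of all genes had, and DESeq2 also called 0 members. The libraries of the groups did not overlap for 4 of the 9 (Maf, Cebpa, Irf8 and Spi1), beside 37.9% of all genes.

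The intervals of 2 SE give rough limits on the remaining differences. Mef2c had 770 and 743 CPM in ST2 KO, against 765 and 736 CPM in ST2 Het, an interval of -0.089 to 0.11. Those of Mef2a (-0.12 to 0.10), Sall1 (-0.17 to 0.072), Irf8 (-0.23 to -0.0060), Spi1 (-0.19 to -0.0017) and Runx1 (-0.21 to 0.13) lay within 0.25 on the log2 scale, and that of Bhlhe41 was wider (-0.15 to 0.26). The Irf8 and Spi1 intervals leave out 0, though the unadjusted edgeR p was 0.0556 for Irf8 and 0.0633 for Spi1. Intervals of 2 SE are thus somewhat too narrow with so few libraries. Klf6, a Krüppel-like factor, was the only gene called among 17 relatives, 27 other macrophage factors and 18 homeostatic genes, with 146 CPM in ST2 KO and 191 CPM in ST2 Het (-0.39 ± 0.06, edgeR adjusted p = 0.012). That call was lost with every cell kept (adjusted p = 0.0571), and without ST2 KO 1 (0.103), ST2 Het 1 (0.0765) or ST2 Het 2 (0.0518). Endothelial markers summed to 65.7 and 72.4 CPM in ST2 KO, against 38.0 and 42.0 CPM in ST2 Het, and mural markers to 31.5 and 34.7 CPM in ST2 KO, against 11.01 and 17.8 CPM in ST2 Het, and their part in these values was not tested.

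**Figure D3:**
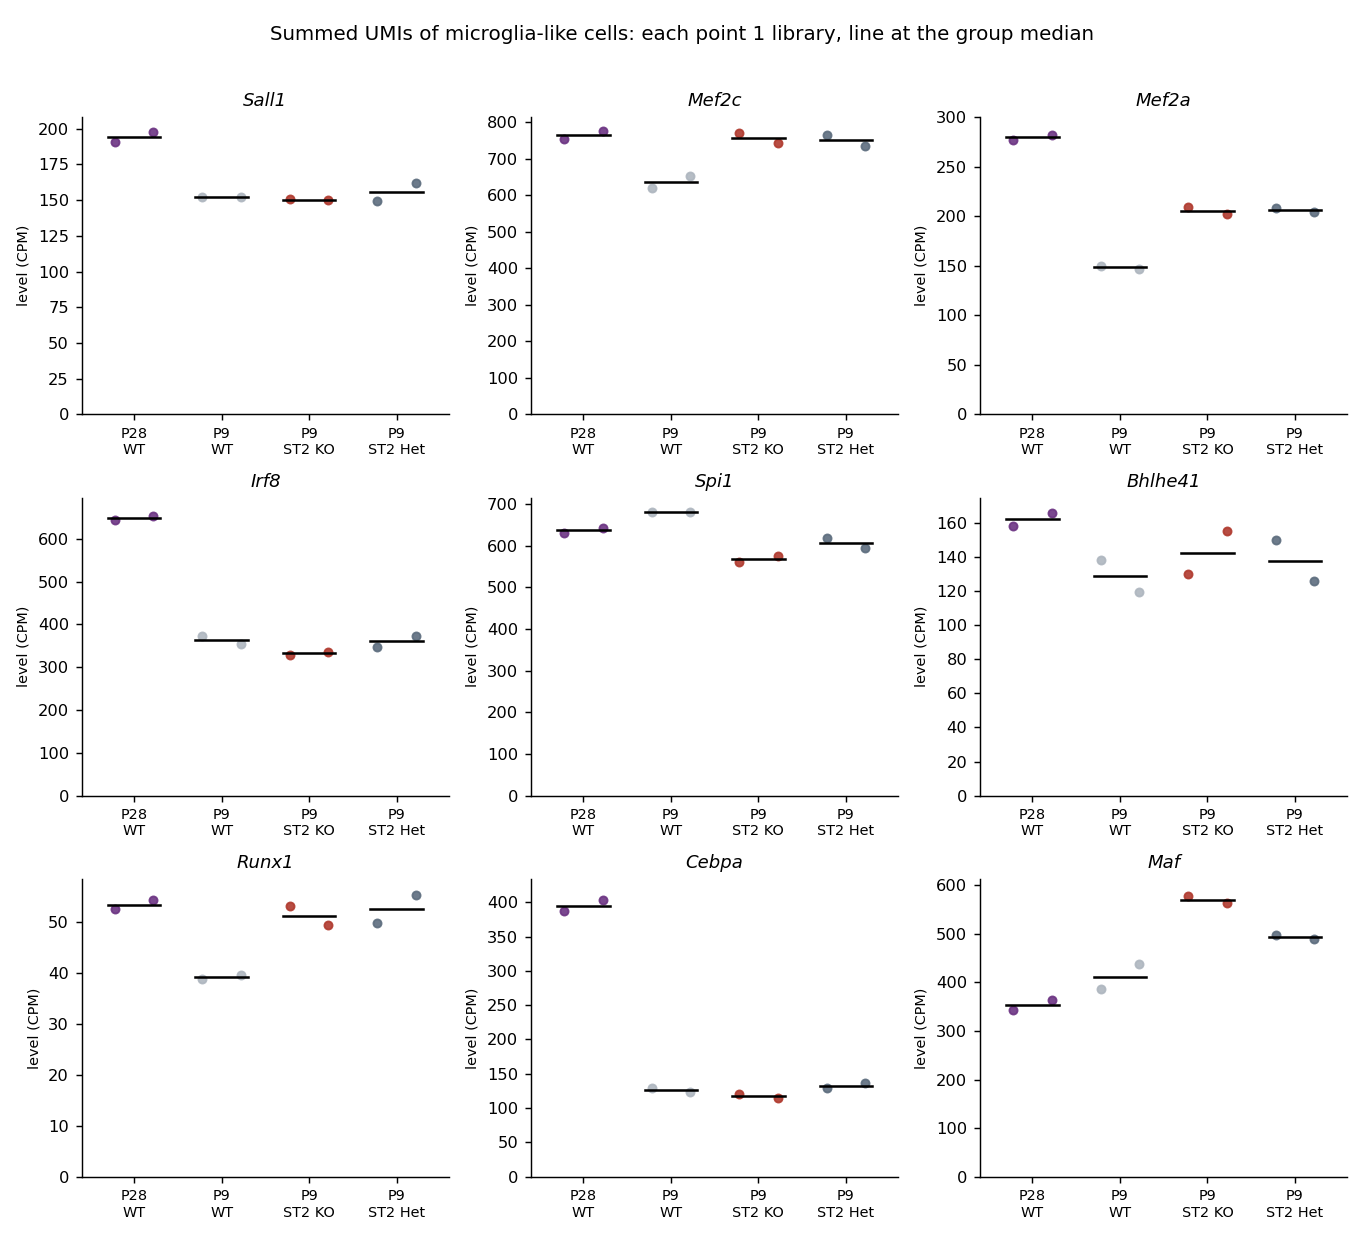
Level of each gene in CPM of summed UMIs of microglia-like cells in the 8 single-cell libraries, 2 per group, with 1 panel per gene. Points are libraries and lines group medians. Cebpa stood at 387 and 403 CPM at P28 against 115 to 137 CPM in all 6 P9 libraries, while Mef2c and Runx1 of the ST2 libraries lay near P28.

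**Figure D4:**
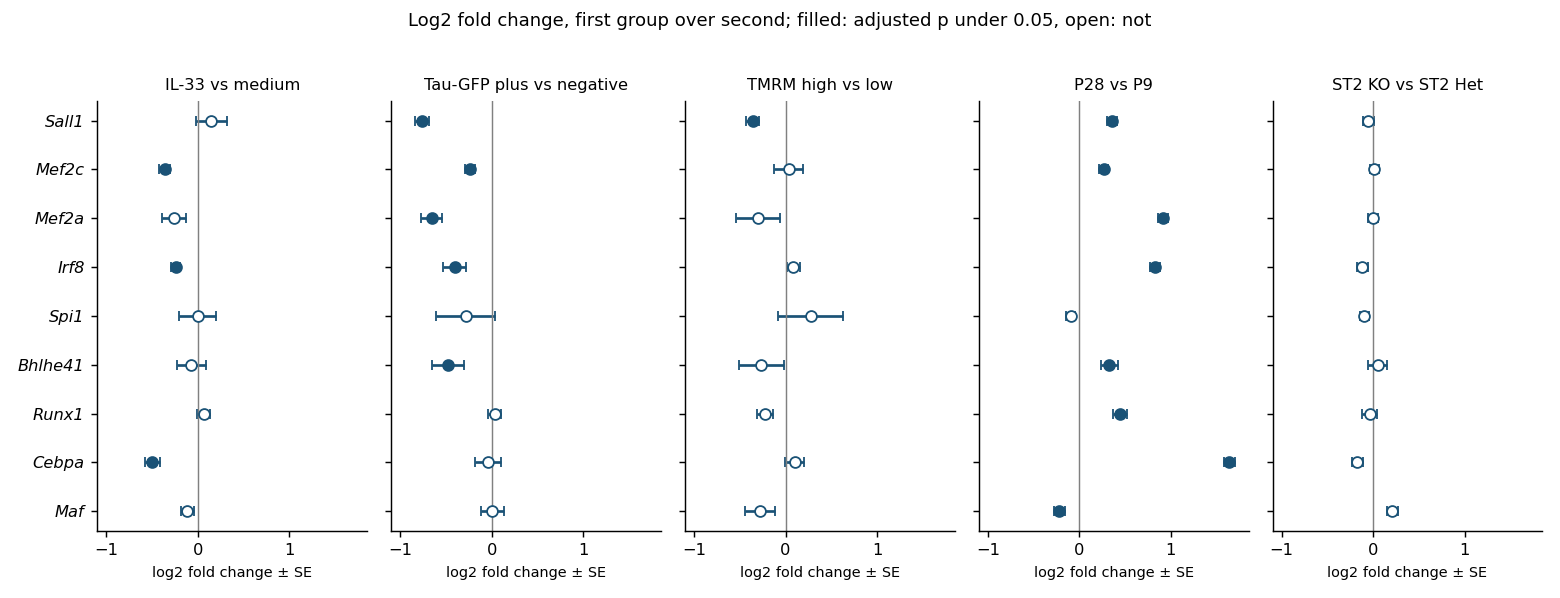
Log2 fold change of the first-named group over the second in 5 comparisons, with bars of 1 SE. Filled points had an adjusted p under 0.05 (edgeR, or limma for TMRM). Sall1 was lower in Tau-GFP plus (-0.76) and TMRM high (-0.36) cells and higher at P28 (0.36), and Cebpa at P28 (1.64) had the largest value.

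Sall1, Mef2c, Maf and Spi1 had their largest difference of the 6 comparisons between medium cultures and Tau-GFP negative cells. How many of all genes share this was not counted. The 2 preparations differ at once in culture, strain background, age and selection, so that these cannot be told apart. The 2 groups also serve as references in the IL-33 and Tau-GFP comparisons. Of 11561 genes, 38.2% were higher in culture, 39.8% lower and 78% called in either direction. Of the 9 factors, 4 were higher and 3 lower, so they were called about as often as all genes. Sall1 ranged from 7.75 over 13.4 to 18.8 CPM in medium cultures, against 428, 476 and 527 CPM in Tau-GFP negative cells (-5.15 ± 0.14, n = 7 and 8, edgeR adjusted p = 1.32e-17), 35.6-fold higher in Tau-GFP negative cells. Mef2c ranged from 80.1 over 98.9 to 108 CPM in culture, against 312, 353 and 381 CPM in Tau-GFP negative cells (-1.84 ± 0.07, edgeR adjusted p = 1.75e-15). Maf averaged 75.6 ± 6.33 CPM in culture and 173 ± 37.5 CPM in Tau-GFP negative cells (-1.19 ± 0.13, edgeR adjusted p = 4.25e-08).

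The groups did not overlap for 4 of the 9 (Sall1, Mef2c, Maf and Cebpa), nor for 52.7% of all genes. In culture, 4 factors were higher. Cebpa averaged 34.7 ± 4.02 CPM in culture and 11.5 ± 1.44 CPM in Tau-GFP negative cells (1.60 ± 0.10, edgeR adjusted p = 1.56e-11), with no overlap, and Spi1 averaged 253 ± 68.3 CPM in culture and 108 ± 43.2 CPM in Tau-GFP negative cells (1.23 ± 0.22, edgeR adjusted p = 3.16e-05), with overlap. Irf8 (344 ± 13.4 CPM in culture and 292 ± 24.7 CPM in Tau-GFP negative cells, 0.24) and Runx1 (41.7 ± 2.89 CPM in culture and 37.3 ± 3.13 CPM in Tau-GFP negative cells, 0.16, edgeR adjusted p = 0.0401) were higher by less. Mef2a (-0.14, interval -0.40 to 0.13) and Bhlhe41 (-0.15, -0.52 to 0.22) did not pass the test. With Tau-GFP plus cells in place of negative ones, the Runx1 call was lost (adjusted p = 0.0666) and Mef2a was called higher in culture (0.53, adjusted p = 0.000672). The relatives also differed, with 9 of 19 higher and 6 lower in culture. Bhlhe40 averaged 37.5 CPM in culture and 0.74 CPM in Tau-GFP negative cells (5.65), and Irf4 0.47 CPM in culture and 5.45 CPM in Tau-GFP negative cells (-3.48). Of 18 homeostatic genes, 16 were lower and 2 higher in culture, with P2ry12 at 17.3 CPM in culture and 6608 CPM in Tau-GFP negative cells (-8.57).

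Single cells show where the factors were expressed. Of 15335 cells kept, 14397 in 13 clusters were microglia-like, 653 border-associated macrophage-like, 187 endothelial-like and 87 rich in neutrophil and monocyte genes, and the 9 factors were left out of the genes used for clustering. The following values describe clusters and carry no test. The median level over 8 libraries in microglia-like cells was 150 CPM for Sall1, 761 for Mef2c, 209 for Mef2a, 356 for Irf8, 632 for Spi1, 143 for Bhlhe41, 51.5 for Runx1, 128 for Cebpa and 459 CPM for Maf. Border-associated macrophage-like cells (7 libraries) held less Sall1 (44.1 CPM) and Bhlhe41 (54.7) and more Maf (845) and Runx1 (97.1), and about as much Spi1 (565). Their Cebpa ranged from 102 to 200 CPM (median 137), against 115 to 407 CPM in microglia-like cells. The P28 libraries were the highest of the latter, so the likeness of the 2 Cebpa medians does not hold for P28 microglia-like cells. Endothelial-like cells (4 libraries) held 458 CPM of Spi1 and a median of 0 CPM of Runx1, with 1 UMI in 150 cells.

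After each cell was thinned to 1000 UMIs, 14.8% of microglia-like cells had a Sall1 UMI (exact 95% Clopper-Pearson interval 14.2 to 15.4%, 14346 cells), against 2.15% of border-associated macrophage-like (1.18 to 3.58%) and 7.22% of endothelial-like cells (3.90 to 12.03%). The border-associated share lay below the endothelial one. Microglia markers summed to 14100 CPM in the border-associated and 13243 CPM in the endothelial-like cluster, and what part of either share is background was not tested. Unthinned shares were 43.1% at a median of 3500 UMIs, 7.96% at 3591 UMIs and 12.3% at 2014 UMIs. Maf UMIs were in 32.8% of microglia-like cells (32.0 to 33.6%) and 55.5% of border-associated macrophage-like cells (51.5 to 59.3%), beside 18.9% of endothelial-like cells (13.5 to 25.4%, 34 of 180 cells), and unthinned in 70.3%, 90.0% and 37.4%. Spi1 UMIs were in 46.1% of microglia-like cells (45.3 to 46.9%) and in 38.3% of endothelial-like cells (31.2 to 45.9%), which should lack that gene. The intervals cover counting error only.

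Within P9 libraries, clusters were set against cluster 1, the largest at that age, led by Crybb1, in the same library. Cluster 2, which Slc39a1 led and which had Bhlhe41 itself among its 10 leading genes, held 260 CPM of Bhlhe41 and cluster 1 held 101 CPM (medians over 6 libraries, median log2 ratio 1.29), higher in 6 of 6. The P28 libraries showed a like pair, with Bhlhe41 at 327 and 325 CPM in cluster 3, against 105 and 107 CPM in cluster 0. In P9 libraries, Bhlhe41 was also higher in clusters 5 (0.44), 6 (0.25) and 8 (0.44), each in 6 of 6. It was lower in cluster 14 (-0.57, 3 of 3). Cluster 4, led by the immediate early genes Fos and Atf3, held 284 CPM of Cebpa against 102 CPM in cluster 1 (1.46, 6 of 6 libraries), and in its P28 cells Cebpa was at 916 and 775 CPM, against 373 and 387 CPM in cluster 0. Cluster 6, led by Spp1, held less Sall1 (129 CPM, against 160 CPM in cluster 1, -0.33) and Maf (402 CPM, against 540 CPM in cluster 1, -0.33), each lower in 6 of 6, and Runx1 higher in 5 of 6 (0.48). Runx1 was also higher in clusters 4 (0.44) and 8 (0.60), and Maf lower in cluster 4 (-0.24), each in 6 of 6. Cluster 14 had Runx1 higher (0.76) and Maf lower (-0.95) in 3 of 3 libraries. Cluster 7, led by the S-phase genes Ccne2 and Rrm2, held less Cebpa (-0.66), Irf8 (-0.45), Sall1 and Maf (-0.38 each) in 6 of 6 libraries. Mef2a (-0.35), Spi1 (-0.25) and Mef2c (-0.087) were also lower there in 6 of 6. Bhlhe41 (0.092) and Runx1 (0.082) were higher there in 5 and 4 of 6 libraries.

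**Figure D5:**
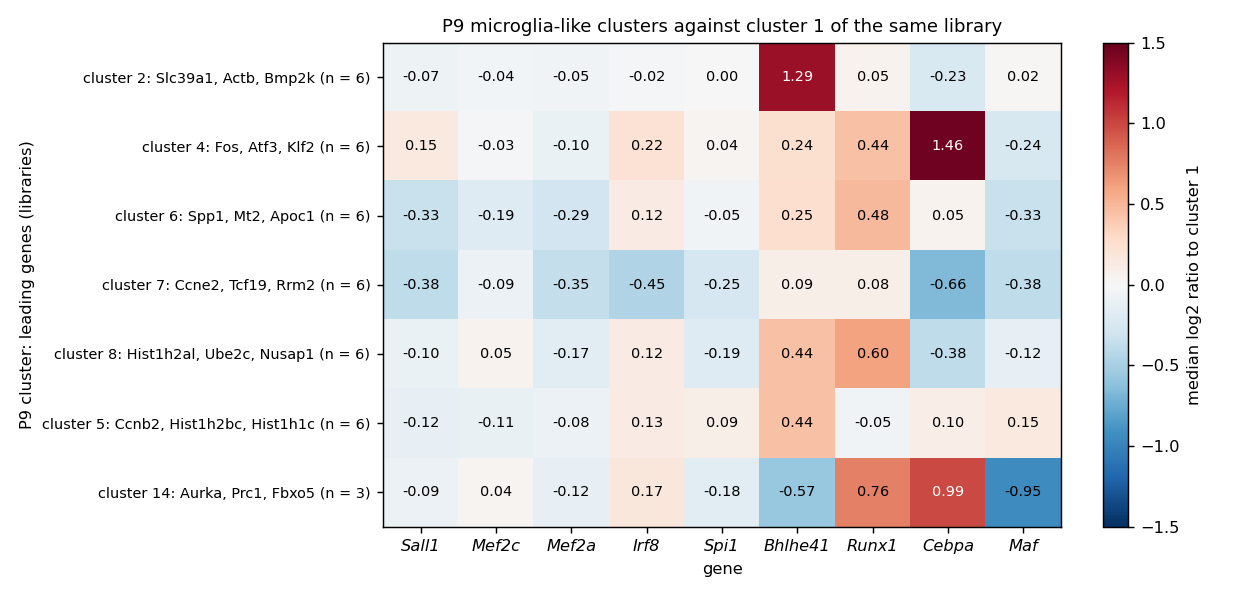
Median over P9 libraries of the log2 ratio of each gene's CPM in a cluster (rows, with leading genes and number of libraries) to cluster 1 of the same library, by gene (columns). Red is higher and blue lower than cluster 1. Bhlhe41 stood out in cluster 2 (1.29) and Cebpa in cluster 4 (1.46), while Spi1 kept between -0.25 and 0.086.

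Genes with a pattern most like each factor were taken as those with the smallest root mean square difference in log2 fold change over the IL-33, Tau-GFP, TMRM, age and ST2 comparisons, among 8844 genes. They were Mgat4a and I830077J02Rik for Sall1 (0.0685 and 0.0715), Fam134b and Slc18b1 for Mef2c (0.0469 and 0.0623), Rsbn1 and Rnf167 for Mef2a (0.0712 and 0.0783) and Rb1cc1 and Maml2 for Irf8 (0.0333 and 0.0526). Spi1 was nearest to Aagab and Stt3a (0.0388 and 0.0433), Bhlhe41 to Ap3m2 and Gpr146 (0.0492 and 0.0499), Runx1 to 2410004B18Rik and Rnf169 (0.0249 and 0.0373) and Maf to Zfp593 and Cnot10 (0.0555 and 0.069). Cebpa had the most distant neighbours, Amz1 and Smap2 (0.12 and 0.17). Such differences can be smaller than the error of the fold changes themselves. For Spi1 the SE was 0.20 with IL-33, 0.32 for Tau-GFP and 0.35 for TMRM. Which genes stand nearest is therefore uncertain and was not tested.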

How the data were processed

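Bulk and single-cell RNA of 56 mouse samples was analysed from the deposited values. The deposited bulk values are expected counts, made by the authors with RSEM and Bowtie2 on mm10 per the submitters' processing notes, and were rounded to whole numbers. The deposited single-cell values are UMI counts from Cell Ranger, and the deposited TMRM values are FPKM from TopHat2 2.0.10 and Cufflinks 2.0.2, both per the same notes. No annotation or further version is stated in these sources. Spi1 was matched as Sfpi1 through RefSeq synonyms. In the count table, 5 of 35 columns match no label and were not used, and the TMRM high 8 table is cut short within chromosome X, which holds no member.

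Groups came from the sample labels. Barcodes with at least 500 genes and at most 10% mitochondrial counts were clustered without the 9 genes (scanpy 1.11.5, leidenalg 0.10.2, Python 3.11.15), and microglia-like cells, named by marker lists, were summed per library. No doublets were removed. The design text states 9391 wild-type cells, and 11276 wild-type barcodes were kept here. The first wild-type libraries' barcode prefixes carry no number and were taken as replicate 1. Counts were tested with edgeR 4.0.16's quasi-likelihood test (TMM, R 4.3.3), with all 8 single-cell libraries in 1 fit, and FPKM with limma 3.58.1 on log2(FPKM + 1) where the mean reached 1 FPKM. P-values were two-sided and adjusted by Benjamini-Hochberg over all genes tested, and 0.05 was the threshold. Levels are CPM after TMM scaling within the libraries compared. DESeq2 1.42.0, other scalings, filters, cell sets and left-out libraries were alternatives. The fits were tested on simulated data. The members and lists were chosen with earlier results of these data known. Named are the 9 members, the called list genes of largest fold change (at most 6 per list and comparison) and the 2 genes nearest to each member; 1 list gene is not reported here. Libraries were not treated as paired by replicate number, since no label ties the numbers to a shared source and same-numbered libraries did not all deviate together. The Tau-GFP library names do alternate plus and negative in order of number, so pairing there stays possible. A replicate block was run as an alternative in every comparison except that of medium cultures with Tau-GFP negative cells. Intervals are 2 SE on either side.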

Additional observations from a re-analysis of the deposited data

Results flagged for a closer look

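In 4 of 54 groups tested of 7 to 10 libraries, 1 library lay far from the rest of its group by the gap to its nearest neighbour over the group's range, and chance alone would mark about 1 group in 20. Irf8 in IL-33 culture 1 was at 293 CPM, above the other 6 IL-33 cultures (232 to 257 CPM). Cebpa in medium culture 2 was at 22.9 CPM, below the other 6 medium cultures (28.9 to 32.8 CPM). Irf8 in Tau-GFP negative 6 was at 399 CPM, above the other 7 negative libraries (309 to 349 CPM). Mef2c in TMRM low 3 was at 21.8 FPKM, below the other 7 low libraries (38.9 to 50.5 FPKM), and that library also had the lowest correlation with its group (0.867).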

How the results depend on the processing

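Of the calls on the 9 genes, 171 values under the alternatives kept direction and call and 8 lost the call, all given in the report. Of values for genes not called, 215 stayed so, 11 became calls and 18 turned direction. Every turned value had an adjusted p above 0.05 except Mef2a in medium culture with Tau-GFP plus cells in place of negative ones (0.53, adjusted p = 0.000672), where Bhlhe41 was 0.33. In the Tau-GFP comparison, leaving out plus 3 or plus 5 moved Cebpa between -0.037 and 0.039 and Maf between -0.019 and 0.016, and Maf was -0.012 with no filter. In the TMRM comparison Mef2c was -0.038 with a replicate block, -0.090 to 0.041 without low 3 or low 2 and -0.10 without both, where Spi1 was -0.18. In ST2 KO against ST2 Het, leaving out 1 library gave -0.10 to 0.0071 for Sall1, -0.020 to 0.044 for Mef2c, -0.033 to 0.016 for Mef2a, -0.089 to 0.19 for Bhlhe41 and -0.11 to 0.036 for Runx1. The causes were not tested.

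Members called in the TMRM comparison numbered 1, but 2 without low 2, 4 without low 3 and 4 without both. All genes called in ST2 KO numbered 69, but 367 with no filter, 348 with a replicate block, 44 with every cell, and 24 to 153 when 1 library was left out. In the other comparisons the counts of members and of all genes, both directions together, stayed within 1.5 times under every alternative run. At P28 the higher calls numbered 3187, but 1952 by DESeq2. Same-numbered libraries correlated over 0.1 for 6 of 8 Tau-GFP numbers, and the own number was the best partner for 4 of those 8. Whether numbers pair libraries there is unsettled. With 2 libraries a group, the deviations from the group mean mirror each other. The ST2 numbers thus share a single correlation (0.105), as do the P28 and P9 numbers (0.0124), and it cannot decide on pairing. The replicate block changed no other call of the 9 genes except Spi1 at P28, which it called lower (-0.14, adjusted p = 0.0118). With 2 single-cell libraries a group the spread rests on 4 groups pooled, and without a read depth the FPKM give no counting error. The alternatives that leave out Tau-GFP plus or TMRM low libraries were chosen after seeing the data.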
